A study of Mus musculus with 24 samples.

Results

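The immunity-related GTPases (IRG family) were followed through all 24 libraries of the silencing experiment. The members were the rows of the deposited gene count table for *Irgm1*, *Irgm2*, *Igtp*, *Ifi47*, *Iigp1*, *Tgtp1* and *Tgtp2*, which were 7 of 55487 genes. The counts came from BRB-seq, in which bulk RNA samples are tagged with a barcode, combined and read from the 3′ end of each mRNA. All samples were of AML-12, an immortal mouse hepatocyte line, so that the groups share a single line. There were 4 libraries in each of 6 groups. BSA cells were given the albumin carrier alone, and PAL cells were given 0.25 mM palmitate, a saturated fatty acid that loads hepatocytes with fat. The remaining groups had palmitate at the same dose and lipofectamine transfection of esiRNA, a mixture of short interfering RNAs made by enzyme digestion, for 24 hours. CON carried 200 nM esiRNA to *Egfp*, a sequence that mouse cells lack, BMAL1 carried 100 nM to *Bmal1*, CHREBP carried 100 nM to *Chrebp*, and BOTH carried esiRNAs to *Bmal1* and *Chrebp* at 200 nM in total. The steatosis medium described for these cells had no dexamethasone and used charcoal-treated serum. The library names place BSA with PAL (column 1), CON with BMAL1 (column 2) and CHREBP with BOTH (column 3). In CON against PAL, column and row cannot be told apart from transfection, since both differed. Column cannot be told apart from *Chrebp* esiRNA in CHREBP or BOTH against CON or BMAL1. Rows A to D held BSA, CON and CHREBP and rows E to H held PAL, BMAL1 and BOTH, so row cannot be told apart from palmitate or from *Bmal1* esiRNA.

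IRG proteins are GTPases that interferons switch on and that defend a cell from bacteria and protozoa living inside it. The GMS members, named for an amino acid exchange in the nucleotide-binding loop, are regulators. *Irgm1*, *Irgm2* and *Igtp* (Irgm3) encode proteins of this class, which sit on the membranes of the host cell and keep the effectors inactive there. The GKS members are the effectors, and these include the products of *Ifi47* (Irgd), *Iigp1* (Irga6), *Tgtp1* (Irgb6) and *Tgtp2*. They collect on the vacuole around a parasite and break it. Their genes are read through the interferon-stimulated response element (ISRE) and the gamma-activated site (GAS), short DNA motifs near the start of interferon-induced genes.

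All 7 are protein-coding genes, and coordinates are those of GENCODE M21 on GRCm38, the mm10 build. Of these, 4 lay within 235.0 kb of chromosome 11. They were *Irgm1* (ENSMUSG00000046879, 48861968 to 48871683, − strand), *Tgtp1* (ENSMUSG00000078922, 48985327 to 48994172, − strand), *Tgtp2* (ENSMUSG00000078921, 49057194 to 49064206, − strand) and *Ifi47* (ENSMUSG00000078920, 49076587 to 49096974, + strand). Further along the chromosome, *Igtp* (ENSMUSG00000078853, 58199556 to 58207591, + strand) and *Irgm2* (ENSMUSG00000069874, 58199618 to 58222782, + strand) overlapped within 23.2 kb. *Iigp1* was on another chromosome. *Igtp* and *Irgm2* shared 162 exon bases on the same strand, none of them among the last 500 exon bases of either gene, where 3′ reads fall. The 3′ ends of *Tgtp1* and *Tgtp2* could hardly be told apart by sequence. Of the 50-base windows in the last 500 bases of *Tgtp2*, 100% also occurred in *Tgtp1*, and 75.9% of those of *Tgtp1* occurred in *Tgtp2* (80.8% in *Tgtp2* or *Gm12185*), so their counts are uncertain. Such shared windows were 3.96% for *Irgm1*, 4.54% for *Ifi47*, which shared them with *Olfr56*, and 0% for *Irgm2*, *Igtp* and *Iigp1*.

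The 250 bases before the transcription start of 6 members were taken from RefSeq (GRCm38.p6), and 5 are shown for how alike or unlike they are. The windows are given 5′ to 3′ on the strand of the gene, at chr11:48871421-48871670 for *Irgm1*, chr11:58214727-58214976 for *Irgm2*, chr11:58199306-58199555 for *Igtp*, chr11:48992247-48992496 for *Tgtp1* and chr11:49076337-49076586 for *Ifi47*. Capitals mark matches on either strand to the ISRE core, which is GAAA, any 2 bases and GAAA, or to the GAS pattern TTCNNNGAA.
Irgm1: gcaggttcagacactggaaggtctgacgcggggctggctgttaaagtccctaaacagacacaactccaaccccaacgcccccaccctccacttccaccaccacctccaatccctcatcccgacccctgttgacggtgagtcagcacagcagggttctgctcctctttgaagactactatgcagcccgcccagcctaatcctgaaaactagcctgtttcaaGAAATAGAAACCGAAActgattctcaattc
Irgm2: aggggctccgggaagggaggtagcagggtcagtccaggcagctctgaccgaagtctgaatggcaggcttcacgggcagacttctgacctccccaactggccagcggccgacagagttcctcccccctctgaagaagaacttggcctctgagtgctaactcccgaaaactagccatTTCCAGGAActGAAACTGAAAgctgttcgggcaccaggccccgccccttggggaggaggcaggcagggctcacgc
Igtp: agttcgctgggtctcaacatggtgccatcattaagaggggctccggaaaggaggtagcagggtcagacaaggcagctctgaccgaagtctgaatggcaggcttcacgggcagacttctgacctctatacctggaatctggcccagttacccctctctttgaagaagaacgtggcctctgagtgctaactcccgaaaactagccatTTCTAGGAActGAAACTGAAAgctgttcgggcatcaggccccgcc
Tgtp1: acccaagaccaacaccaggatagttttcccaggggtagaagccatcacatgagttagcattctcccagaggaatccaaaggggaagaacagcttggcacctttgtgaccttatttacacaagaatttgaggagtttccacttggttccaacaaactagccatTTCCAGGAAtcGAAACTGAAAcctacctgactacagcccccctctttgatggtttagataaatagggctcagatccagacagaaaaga
Ifi47: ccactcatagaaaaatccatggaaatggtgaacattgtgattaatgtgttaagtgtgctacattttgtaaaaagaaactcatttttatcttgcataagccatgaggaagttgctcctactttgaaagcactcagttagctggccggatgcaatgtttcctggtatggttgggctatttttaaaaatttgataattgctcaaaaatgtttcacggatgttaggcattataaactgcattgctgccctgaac

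The ISRE core was found in 5 of the 6 windows and in 2.98% of 32851 promoter windows of this length. *Irgm1* held an overlapping pair of cores, from −30 to −21 and −24 to −15 relative to the start. The GAS pattern was found in 4 windows, against 7.02% of all windows. In *Irgm2*, *Igtp*, *Tgtp1* and *Tgtp2* the GAS match stood before the ISRE core with 2 bases between them, and the ISRE core began at −64, −34, −77 and −70. A GAS match and an ISRE core starting within 20 bases of each other were found in 0.0944% of all windows, which were 31 of 32851. The *Ifi47* window matched neither pattern, which says only that these letters are absent from that window. Identity over the aligned window was 68.9% between *Irgm2* and *Igtp*, 62.6% between *Tgtp1* and *Tgtp2*, and 46.1% to 55.4% for the other pairs. The whole *Irgm1* window lies in an exon of an annotated noncoding transcript of that gene, and 12 bases of the *Tgtp1* window lie in an exon of a longer transcript. GENCODE also starts *Irgm2* at 58199618, before its window, so other starts are annotated for these 3 genes. Starts after the windows were not looked for in any member, and *Ifi47* has 5 annotated transcripts.

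**Figure D1:**
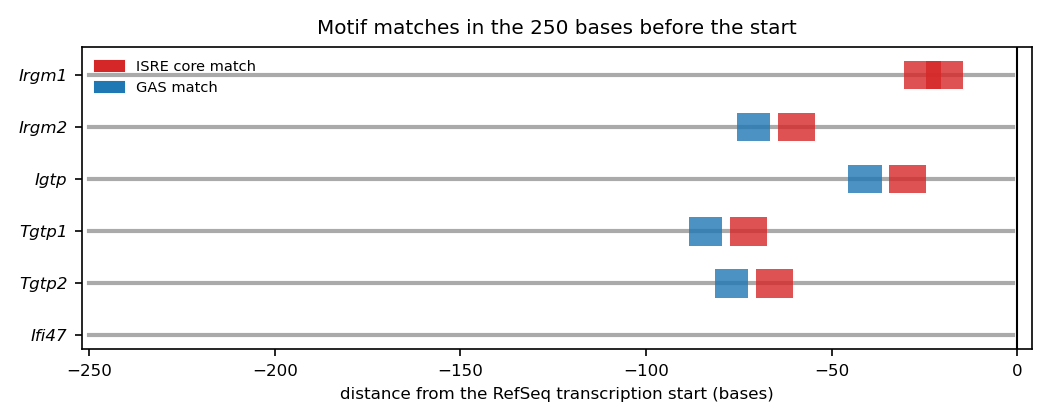
Positions of ISRE core matches (red) and GAS matches (blue) in the 250 bases before the RefSeq start of 6 IRG members, on an axis of distance from the start in bases. In Irgm2, Igtp, Tgtp1 and Tgtp2 the GAS match stands 2 bases before the ISRE core, Irgm1 has 2 overlapping cores and no GAS match, and Ifi47 has no match.

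Libraries held 5399700 to 11237474 gene counts, and 3 counts, taken as the smallest detectable number, were worth 2.02 to 4.24 normalized counts. The targeted transcripts were weakly expressed. *Arntl* (*Bmal1*) was 44.7 ± 11.6 normalized counts in CON and 26.0 ± 4.82 in BMAL1 (SD, n = 4 each), a log2 fold change of -0.78 (SE 0.28) that DESeq2 left without an adjusted p. *Mlxipl* (*Chrebp*) averaged 35.6 ± 7.26 in CON, against 25.9 ± 4.75 in CHREBP (SD, n = 4 each), a difference not past the threshold (DESeq2 *Padj* = 0.593). In BOTH against CON each fell past the threshold, by 0.98 for *Arntl* and 1.07 for *Mlxipl* on the log2 scale (DESeq2 *Padj* = 0.00994 and 0.00762). The paper reports that both genes were silenced, from its transcriptome data and from quantitative PCR, which was not examined here. The hepatocyte markers *Hnf4a* and *Ttr* were at means of 1187 to 1357 and 1215 to 1845 normalized counts over the groups, *Alb* was at 109 to 215, and *Ahsg*, *Apoa1*, *Fgb* and *Apob* averaged 1.90, 7.23, 16.2 and 22.8 over the 16 esiRNA libraries. Of the hepatocyte markers tested in PAL against BSA, 4 of 8 were called lower, where 7.6% of all genes were. In BOTH against CON the log2 fold changes called were -0.17 for *Hnf4a* and -0.35 for *Serpina1a* (DESeq2 *Padj* = 0.0794 and 0.0312), and edgeR did not call *Hnf4a* (0.126). In BOTH against BMAL1 those called were -0.49 for *Ttr*, -0.18 for *Hnf4a* and -0.33 for *Serpina1a* (DESeq2 *Padj* = 7.51e-10, 0.0455 and 0.0432). *Ttr* was also lower in CHREBP than in BMAL1 (-0.60, DESeq2 *Padj* = 1.71e-14) and higher in BMAL1 than in CON (0.46, DESeq2 *Padj* = 5.83e-07), and *Alb* was higher in CON than in PAL (0.63, DESeq2 *Padj* = 0.0105). The cholangiocyte markers *Krt7* and *Krt19* were also present. *Krt7* was called lower in CHREBP against CON (-0.32, DESeq2 *Padj* = 0.0989, edgeR 0.165) and in BOTH against CON (-0.49, DESeq2 *Padj* = 0.000281). *Krt19* was higher in PAL than in BSA (0.53, DESeq2 *Padj* = 7.72e-09) and lower in BOTH than in CON (-0.34, DESeq2 *Padj* = 0.00318) and BMAL1 (-0.32, DESeq2 *Padj* = 0.00590). *Sox9*, on the same list, was higher in CON than in PAL (0.20, DESeq2 *Padj* = 0.0849, edgeR 0.110) and lower in BOTH than in BMAL1 (-0.21, DESeq2 *Padj* = 0.0301). The part of these moves in the IRG values was not tested. The T and NK cell markers summed to at most 2.31 normalized counts in any library with 7 of 8 genes at 0, and the macrophage markers to at most 29.8 with *Adgre1* and *Clec4f* at 0. Endothelial markers summed to at most 4.72 and stellate cell and fibroblast markers to at most 28.0. On the latter list, 1 of 2 tested was called lower in PAL than in BSA, against 7.6% of all genes. It was *Des* (-2.59, DESeq2 *Padj* = 0.0521, edgeR 0.0316).

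Levels of the regulators are given first as normalized counts, which are counts divided by DESeq2 size factors of all 24 libraries. Because 3′ counts are not per length, levels are compared between groups and not between genes. *Irgm1*, which also has roles in autophagy, was at 886, 856, 891 and 1019 in BSA replicates 1 to 4 and at 1151, 1000, 963 and 1026 in PAL. It was at 1238, 2212, 2290 and 1921 in CON and at 1299, 1219, 1292 and 1471 in BMAL1. It reached 6308, 4314, 4279 and 4514 in CHREBP and 5584, 7522, 7176 and 7138 in BOTH. All 8 libraries with *Chrebp* esiRNA were above the other 16, and CON replicate 1 was within the BMAL1 range. The order of group means was BSA, PAL, BMAL1, CON, CHREBP and BOTH, and libraries overlapped between the neighbours BSA and PAL, BMAL1 and CON, and CHREBP and BOTH.

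*Irgm2* was at 31.7, 31.9, 35.2 and 41.0 normalized counts in BSA and at 19.8, 32.2, 24.6 and 23.3 in PAL. In CON it was at 56.6, 142, 142 and 128, and in BMAL1 at 35.3, 35.1, 46.0 and 55.7. In CHREBP it was at 559, 394, 333 and 341, and in BOTH at 517, 801, 679 and 577. CON replicate 1 stood apart from the other 3 CON libraries but was still above every BMAL1 library. The order of means was PAL, BSA, BMAL1, CON, CHREBP and BOTH, with overlap between PAL and BSA, between BSA and BMAL1 and between CHREBP and BOTH.

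*Igtp* was at 31.7, 45.5, 30.7 and 32.5 normalized counts in BSA and at 34.3, 46.3, 48.1 and 18.7 in PAL. CON libraries held 47.6, 215, 239 and 131, and BMAL1 libraries 62.4, 48.9, 65.1 and 65.8. CHREBP libraries held 1616, 732, 628 and 616, and BOTH libraries 1219, 2303, 1506 and 1305. CON replicate 1 was below every BMAL1 library and within the PAL range, and CHREBP replicate 1 was above 3 of the 4 BOTH libraries. The means followed the same order as those of *Irgm1*, and libraries overlapped between the same neighbours.

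Among the effectors, *Ifi47* was at 826, 905, 874 and 749.8 normalized counts in BSA and at 620, 593, 579 and 574 in PAL. CON was at 738, 1362, 1382 and 1123, and BMAL1 at 777, 729, 798 and 843. CHREBP was at 4543, 3061, 2502 and 2944, and BOTH at 4639, 7304, 5595 and 4955. This was the member whose 4 PAL libraries were all below BSA and whose 4 BOTH libraries were all above CHREBP. Its means rose in the order PAL, BMAL1, BSA, CON, CHREBP and BOTH, and libraries overlapped between BMAL1 and BSA and between BSA and CON.

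*Iigp1* (ENSMUSG00000054072, GRCm38 chromosome 18, 60376027 to 60392634, + strand), a well-studied effector against *Toxoplasma*, was near absence without transfection, with 5 reads in the 4 BSA libraries together and 2 in PAL. Every BSA and PAL library was under the floor of 3 counts, so that no fold change is given between them. CON libraries held 0, 23.6, 36.2 and 19.7 normalized counts, and BMAL1 libraries 10.9, 0, 0 and 4.57. CHREBP libraries held 539, 248, 186 and 149.5, and BOTH libraries 406, 945, 547 and 196. The 8 libraries with *Chrebp* esiRNA were above the highest CON library, and the libraries spread widely within all 4 esiRNA groups, with a coefficient of variation of 60.3% in BOTH, 63.1% in CHREBP, 75.5% in CON and 133% in BMAL1. BMAL1 and CON overlapped, as did CHREBP and BOTH.

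*Tgtp1* was at 7.71, 5.80, 8.12 and 1.41 normalized counts in BSA and at 6.60, 3.02, 2.24 and 3.89 in PAL. It was at 9.87, 47.9, 33.7 and 24.3 in CON and at 2.72, 12.7, 6.70 and 10.1 in BMAL1. In CHREBP it was at 303, 157, 151 and 141, and in BOTH at 267, 391, 327 and 256. CON replicate 1 was below 2 BMAL1 libraries, and CHREBP replicate 1 was above 2 BOTH libraries. The order of means was that of *Irgm2*, and CON and CHREBP were the neighbours without overlap. *Tgtp2* had 0 to 4 counts in every library and 14 in all, so it was too low to test. Because of the shared 3′ ends, this low count does not show that *Tgtp2* mRNA was rarer than that of *Tgtp1*.

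**Figure D2:**
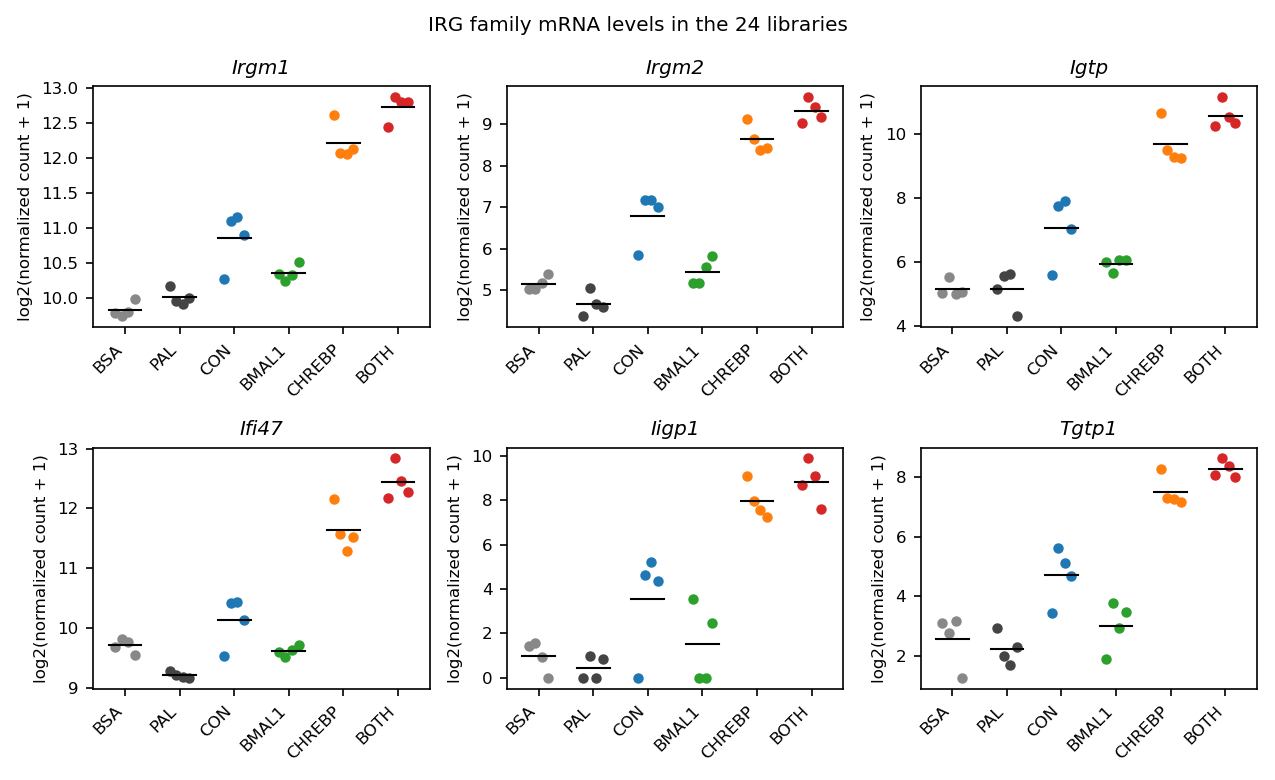
Levels of the 6 tested IRG members as log2(normalized count + 1) in each of the 24 libraries, by group, with points for replicates 1 to 4 from left to right and a line at the mean of the 4 log2 values. In all 6 panels the CHREBP and BOTH points are above every point of the other groups, and the CON replicate 1 point is the lowest of CON.

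Together the 7 members took 0.0242% ± 0.000338 of all gene counts in BSA, 0.0222% ± 0.00104 in PAL, 0.0447% ± 0.0122 in CON and 0.0296% ± 0.00233 in BMAL1 (SD, n = 4 each). The share was 0.129% ± 0.0328 in CHREBP and 0.200% ± 0.0369 in BOTH (SD, n = 4 each). Within the esiRNA groups, 1 library was the highest for most members. In CON, replicate 1 was the lowest for 6 of the 6 tested members and replicate 3 the highest for 5. CHREBP replicate 1 and BOTH replicate 2 were the highest of their groups for 6 of 6. BOTH replicate 2 also had the highest share of reads with no feature (6.47%) and the lowest share not aligned (24.9%) of the 24 libraries. The bearing of this on the IRG values was not tested. In BMAL1, replicate 4 was the highest for 4 and replicate 2 the lowest for 5. In BSA and PAL no library was the lowest or the highest for more than 3 of the 6.

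Palmitate without transfection went with a fall in *Ifi47* and with no called change in the other members. The mean of *Ifi47* was 839 ± 67.6 normalized counts in BSA and 592 ± 20.7 in PAL (SD, n = 4 each). Its log2 fold change was -0.50 (SE 0.08, DESeq2 *Padj* = 1.53e-08). *Irgm1* was 0.19 higher on the log2 scale (SE 0.08), at the edge of the 0.1 threshold (DESeq2 *Padj* = 0.1005), and it was called by edgeR (0.0916) and without BSA replicate 4 or PAL replicate 3 (DESeq2 *Padj* = 0.0312 and 0.0814). Values for *Irgm2*, *Igtp* and *Tgtp1* were -0.46 (SE 0.30), 0.06 (SE 0.31) and -0.61 (SE 0.75), and *Iigp1* and *Tgtp2* were too low to test. Of the 5 members tested, 0 were called higher and 1 lower, where 6.65% of 12827 genes were called higher and 7.6% lower, and edgeR called 6.98% higher. Non-overlap with PAL below BSA, seen for 1 member, was found for 8.24% of all genes.

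In CON, palmitate-treated cells transfected with control esiRNA, 6 of the 6 members tested were higher than in PAL. Mean *Irgm2* went from 24.98 ± 5.22 normalized counts in PAL to 117 ± 41.0 in CON (SD, n = 4 each), or 2.22 higher on the log2 scale (SE 0.28; DESeq2, *Padj* = 1.47e-12). *Tgtp1* rose by 2.92 (SE 0.56) and *Igtp* by 2.11 (SE 0.56) on the log2 scale (DESeq2 *Padj* = 4.58e-05 and 0.0129). The rise was 0.89 for *Irgm1* (SE 0.20, DESeq2 *Padj* = 0.00166) and 0.96 for *Ifi47* (SE 0.21, *Padj* = 0.00053), the members with the most counts. *Iigp1* was called too (*Padj* = 0.00109), with 96 reads in CON and 2 in PAL, which is a ratio of 40.4 per size factor and a 95% counting interval of 10.9 to 338. It had enough counts for this test through its CON reads, so the filter favoured a higher call. In these data 1.59% of 12928 genes were called higher, and the median log2 fold change was 2.16 over the 6 members and -3.95e-05 over all genes. CON was above PAL without overlap for 4 members, which 4.18% of all genes showed. The call of *Igtp* was lost without CON replicate 2 or 3 (DESeq2 *Padj* = 0.129 and 0.142), and that of *Iigp1* without PAL replicate 2 or 4 (0.146 and 0.219). A rise in the amount of an mRNA per cell and a rise in the share of cells that hold it cannot be told apart in bulk libraries.

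*Chrebp* esiRNA was followed by higher levels of every member tested, regulators and effectors alike. Total esiRNA was 100 nM in CHREBP and 200 nM in CON, so the dose differed as well. Against CON, *Irgm1* was 2.53-fold, *Irgm2* 3.46-fold and *Igtp* 5.65-fold higher. *Ifi47* was 2.83-fold and *Tgtp1* 6.41-fold higher, and *Iigp1* was 14.1-fold higher. On the log2 scale these were 1.34 (SE 0.18) for *Irgm1*, 1.79 (SE 0.28) for *Irgm2* and 2.50 (SE 0.44) for *Igtp*, with DESeq2 *Padj* of 8.11e-11, 3.75e-08 and 2.52e-06. The effectors had values of 1.50 (SE 0.22) for *Ifi47*, 3.82 (SE 1.05) for *Iigp1* and 2.68 (SE 0.41) for *Tgtp1*, with DESeq2 *Padj* of 4.70e-09, 0.0123 and 2.64e-08. All 6 were called higher, where 2.65% of 13883 genes were, and all 6 were above CON without overlap, as were 5.01% of genes. The median was 2.14 over the 6 members and -0.00365 over all genes. *Iigp1* was no longer called without CHREBP replicate 1 (3.29, DESeq2 *Padj* = 0.142) or with a replicate block, which adds the replicate number to the fit (3.50, *Padj* = 0.111). Without CON replicate 1, the lowest CON library, all 6 were still called, with values of 1.18 for *Irgm1*, 1.56 for *Irgm2*, 2.20 for *Igtp*, 1.34 for *Ifi47*, 3.40 for *Iigp1* and 2.39 for *Tgtp1*.

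**Figure D3:**
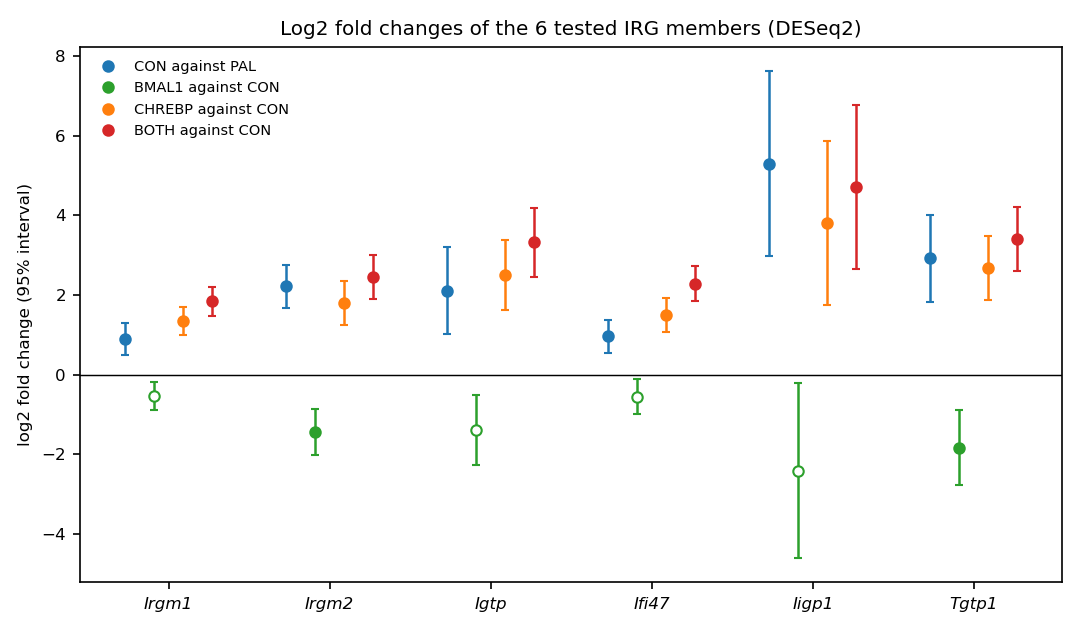
Log2 fold changes of the 6 tested IRG members from DESeq2 in CON against PAL and in the 3 silencing groups against CON, with 95% intervals; filled points have Padj under 0.1 and open points do not. CON against PAL, CHREBP against CON and BOTH against CON are above 0 with filled points for all 6 members, and BMAL1 against CON is below 0 for all 6 with filled points for Irgm2 and Tgtp1.

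With both esiRNAs 6 of 6 members were higher than in CON, in a comparison where the total dose was equal. *Irgm1* was 3.57-fold, *Irgm2* 5.47-fold and *Igtp* 9.97-fold above CON. Fold values of the effectors were 4.87 for *Ifi47*, 26.2 for *Iigp1* and 10.6 for *Tgtp1*. DESeq2 *Padj* ran from 2.62e-22 for *Ifi47* to 0.000251 for *Iigp1*, and all 6 were called higher and were above CON without overlap. Over all genes, 5.99% were called higher and 6.42% were above without overlap. The 6 calls were kept in every alternative that was run.

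The single silencings were compared at the same dose of 100 nM. CHREBP was above BMAL1 for 6 of 6 members without overlap, as for 5.05% of all genes. The differences were 1.88 for *Irgm1*, 3.23 for *Irgm2*, 3.89 for *Igtp*, 2.05 for *Ifi47*, 6.23 for *Iigp1* and 4.51 for *Tgtp1* on the log2 scale. DESeq2 *Padj* was at most 1.79e-06, and 2.9% of genes were called higher. When *Chrebp* esiRNA was added to *Bmal1* esiRNA (BOTH against BMAL1), the log2 fold changes were 2.37 for *Irgm1*, 3.89 for *Irgm2*, 4.71 for *Igtp*, 2.84 for *Ifi47*, 7.13 for *Iigp1* and 5.23 for *Tgtp1*. All 6 were called, with DESeq2 *Padj* of at most 7.27e-09 and 6.35% of genes called higher, and all 6 were above BMAL1 without overlap, as were 6.83% of genes. The *Iigp1* values rest on 13 reads in BMAL1, against 1129 in CHREBP and 2114 in BOTH. Of the 13 reads, 8 were in BMAL1 replicate 1, and without that library the *Iigp1* values were 7.49 for CHREBP and 8.38 for BOTH against BMAL1.

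BMAL1 gave lower values than CON, past the threshold for 2 members. Total esiRNA was 100 nM in BMAL1 and 200 nM in CON, so *Bmal1* esiRNA and the lower dose cannot be told apart here. *Irgm2* fell from 117 ± 41.0 normalized counts in CON to 43.0 ± 9.89 in BMAL1 (SD, n = 4 each), a change of -1.44 on the log2 scale (SE 0.30, DESeq2 *Padj* = 0.00141, edgeR 0.0310). *Tgtp1* fell by 1.83 on the log2 scale (SE 0.48, DESeq2 *Padj* = 0.0498), a call that edgeR did not make (0.283) and that was lost with a replicate block. The values were -0.54 (SE 0.18) for *Irgm1*, -1.39 (SE 0.45) for *Igtp*, -0.55 (SE 0.22) for *Ifi47* and -2.41 (SE 1.12) for *Iigp1*, with DESeq2 *Padj* of 0.209, 0.180, 0.431 and 0.565. That of *Iigp1* lay between -3.67 and -1.95 when a library was left out. All 6 values were negative, and 2 were called lower, where 0.324% of 13883 genes were (edgeR 1 member, 0.072% of genes). All 6 had an unadjusted p under 0.05, a level for which the share of all genes was not taken. BMAL1 was below CON without overlap for *Irgm2* alone, and 2.82% of all genes were below in this way. Without CON replicate 1, 5 members were called, *Irgm1* (-0.70, DESeq2 *Padj* = 1.48e-05), *Igtp* (-1.69, 0.00217) and *Ifi47* (-0.71, 0.0762) among them. The share of all genes called in that fit was not taken. With any of BMAL1 replicates 1, 3 and 4 or CON replicates 2 and 3 left out, 1 member was called, which was *Irgm2*, and *Tgtp1* had no adjusted p without CON replicate 3.

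The values had the other sign in BOTH against CHREBP, where the total dose rose from 100 to 200 nM with the addition of *Bmal1* esiRNA, so the esiRNA and the dose cannot be told apart in this comparison either. In BOTH against CHREBP, *Ifi47* rose from 3262 ± 887 normalized counts to 5623 ± 1189 (SD, n = 4 each), by 0.79 on the log2 scale (SE 0.22, DESeq2 *Padj* = 0.0495, edgeR 0.0463). The other values were 0.50 (SE 0.18) for *Irgm1*, 0.66 (SE 0.27) for *Irgm2*, 0.82 (SE 0.44) for *Igtp*, 0.90 (SE 1.04) for *Iigp1* and 0.72 (SE 0.40) for *Tgtp1*. These were positive for 6 of 6 members, and 3 had an unadjusted p under 0.05, a level for which the share of all genes was not taken. *Ifi47* was the member called, where 0.843% of genes were called higher and 0.346% by edgeR. It was also the member above CHREBP without overlap, with 1.94% of all genes. The *Ifi47* call was lost without BOTH replicate 2 or 3 or CHREBP replicate 2, 3 or 4, with DESeq2 *Padj* of 0.134 to 0.205, with a replicate block (0.113) and with the 2 groups alone (0.110). Without CHREBP replicate 1, *Irgm1* was called as well (0.65, DESeq2 *Padj* = 0.00085).

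The interaction term is the difference between BOTH against CHREBP and BMAL1 against CON. Total dose rose in the first and fell in the second, so a different effect of *Bmal1* esiRNA with *Chrebp* esiRNA cannot be told apart from dose. The term was positive for all 6 members and called for 5, where 1.2% of genes were called higher and 0.267% lower. *Irgm2* had the smallest adjusted p, with a value of 2.10 on the log2 scale (SE 0.41, DESeq2 *Padj* = 0.000334). Values were 1.04 (SE 0.25) for *Irgm1*, 2.21 (SE 0.63) for *Igtp*, 1.34 (SE 0.31) for *Ifi47* and 2.55 (SE 0.63) for *Tgtp1*, with DESeq2 *Padj* of 0.0105, 0.0379, 0.00739 and 0.0102. *Iigp1* had a value of 3.31 (SE 1.53, DESeq2 *Padj* = 0.435), which lay between 2.85 and 4.57 when a library was left out. The median was 2.15 over the members and -0.000351 over all genes. The *Igtp* call was lost in 7 of 16 fits that left out a library and with a replicate block (2.12, DESeq2 *Padj* = 0.113), and *Iigp1* was called without CON replicate 1 (3.76, *Padj* = 0.051).

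**Figure D4:**
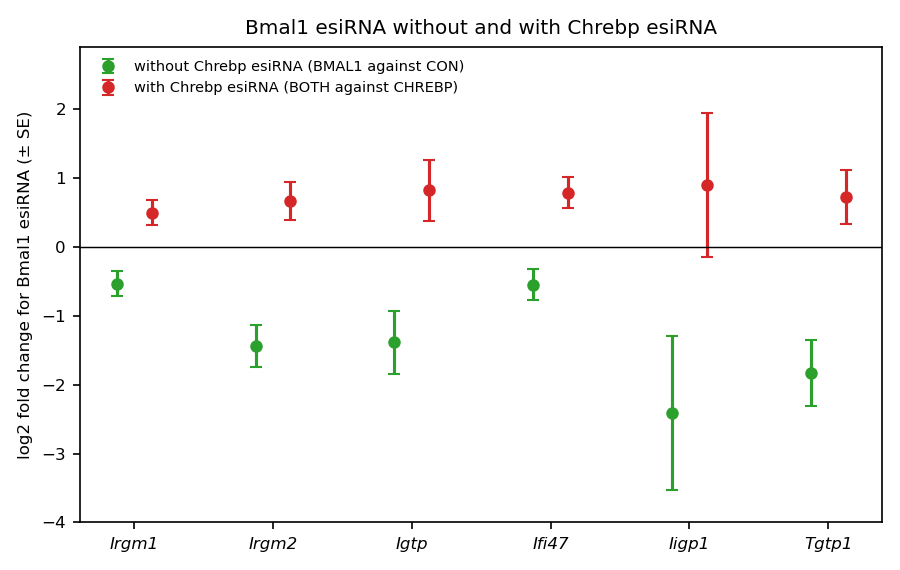
Log2 fold change (DESeq2, ± SE) in BMAL1 against CON (green, 100 against 200 nM esiRNA in total) and in BOTH against CHREBP (red, 200 against 100 nM), for the 6 tested members. All 6 green points are below 0 and all 6 red points above it, and the difference between them passed the threshold for 5 members, Iigp1 being the exception.

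Set beside PAL as a common level, with no test, the group means of *Igtp* were 1.64-fold in BMAL1, 4.30-fold in CON, 24.4-fold in CHREBP and 43.0-fold in BOTH. The same values for *Tgtp1* were 2.05, 7.36, 47.7 and 78.8. For *Irgm1* they were 1.28, 1.85, 4.69 and 6.62. The order BMAL1, CON, CHREBP and BOTH held for the means of 6 of 6 members.

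**Figure D5:**
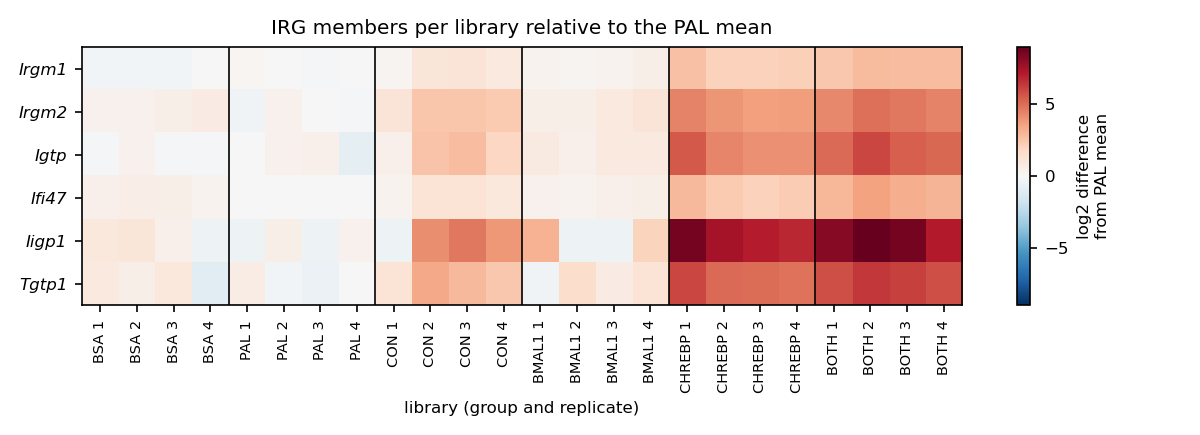
Log2 difference of each library from the PAL mean, in log2(normalized count + 1), for the 6 tested members (rows) in the 24 libraries (columns, by group and replicate), with red above and blue below. CON replicate 1 is paler than CON replicates 2 to 4, and all CHREBP and BOTH columns are the darkest for every member.

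The other genes of the pathway were taken from lists of loci, ligands, receptors and partners. The genes named from them were chosen by their values in these libraries, some of them by the size of their change in CHREBP against CON, so the values printed are a description. Of 11 further IRG loci, 7 were tested in CHREBP against CON and 4 were called higher, where 2.65% of all genes were. These were *Gm5431* at 3.68, *Gm4951* at 3.74, *Gm4841* at 4.62 and *Gm12185* at 1.10 on the log2 scale (DESeq2 *Padj* = 4.21e-07, 0.00666, 0.00358 and 0.0994). edgeR called 3 of them and not *Gm12185* (0.177). In PAL against BSA and in CON against PAL, 2 of the 11 loci had enough counts to test. *Gm5431*, *Gm4951* and *Gm4841* reached the 25 summed counts needed for a test through CHREBP and BOTH, where they were high. The filter thus favoured a higher call for them, and the share of all genes does not allow for this. *Gm5431* was at 0 in every BSA and PAL library, 1.93 ± 2.87 normalized counts in CON and 28.6 ± 12.3 in CHREBP (SD, n = 4 each). *Irgq*, a distant relative of the family, had a value of -0.09 (DESeq2 *Padj* = 0.869). *Gm12185* shares some of the 3′ windows of *Tgtp1*, as given above for *Tgtp1*, so its count is uncertain.

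Ligands were barely detected. Of 13 interferon genes, 6 had no read in any library, *Ifng* among them, and *Ifnb1*, the interferon that most cell types can make, was the member of this list with enough reads to test. *Ifnb1* counts were 0 in all BSA and BMAL1 libraries and at most 1 in PAL. They were 0, 4, 1 and 0 in CON, 8, 5, 2 and 2 in CHREBP and 9, 37, 12 and 19 in BOTH. The rise of BOTH over CON was called (4.21, DESeq2 *Padj* = 0.000101), while CHREBP against CON was not (2.05, *Padj* = 0.339). Without the reads of BOTH, *Ifnb1* would not have reached the 25 summed counts needed for a test. The filter thus favoured the call in BOTH. The 2 counts in each of CHREBP replicates 3 and 4 were under the floor of 3 counts, so their order against the CON libraries was not measured. The part of *Ifnb1* in the IRG values was not tested.

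The receptor genes *Ifngr1*, *Ifngr2*, *Ifnar1* and *Ifnar2* had values of 0.07, -0.01, 0.14 and 0.05 in CHREBP against CON, none of them called. Of the 14 genes of the receptor and signalling list, 6 were called higher, against 2.65% of all genes, among them *Usp18*, which restrains the type I receptor, at 2.87 and *Stat2* at 1.71 (DESeq2 *Padj* = 3.79e-05 and 1.41e-10). *Usp18* averaged 52.9 ± 7.51 normalized counts in BMAL1, 366 ± 258 in CON, 2676 ± 845 in CHREBP and 5279 ± 1481 in BOTH (SD, n = 4 each), the order seen for the IRG members. In CON against PAL 6 of 14 were called higher, against 1.59% of all genes, and in PAL against BSA 5 were called lower, against 7.6%.

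Guanylate-binding proteins, larger GTPases that act with the IRG proteins on vacuoles, were also higher. In CHREBP against CON 8 of 9 tested were called higher, against 2.65% of all genes, and *Gbp3*, *Gbp2* and *Gbp7* were at 3.09, 2.91 and 2.84 on the log2 scale (DESeq2 *Padj* = 0.00146, 3.83e-08 and 0.000724). In BOTH against CON 9 of 9 were called higher (5.99% of all genes) and in CON against PAL 5 of 6 (1.59%). In BMAL1 against CON DESeq2 gave 5 of the 9 an adjusted p and called 0 lower (0.324% of all genes), with 4 of the 9 at an unadjusted p under 0.05 and 0 by edgeR. The ATG8 conjugation genes, whose products are needed to place IRG proteins on vacuoles, gave 0 calls of 11 in CHREBP against CON with DESeq2 and with edgeR, and 2 at an unadjusted p under 0.05. Of 5 genes listed for the ubiquitin tagging of IRG-coated vacuoles, 1 was called higher, against 2.65% of all genes. It was the interferon-inducible ligase gene *Trim21* (1.78, SE 0.29, DESeq2 *Padj* = 2.11e-07). The list medians in this comparison were 2.84 for the guanylate-binding proteins, 0.23 for receptors and signalling, 0.06 for ATG8 conjugation and 0.12 for ubiquitin tagging, beside -0.00365 for all genes.

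The genes most like each member were found by the root mean square difference of log2(normalized count + 1), each gene centred on its own mean over the 24 libraries, among 10565 genes. All 24 libraries share the same 6 groups, so genes with like group means score as near. For *Ifi47* the nearest were *Znfx1* at 0.12, *Helz2* at 0.17 and *Stat2* at 0.21, where the median gene was at 1.21. For *Irgm1* they were *Helz2* at 0.22, *Nampt* at 0.23 and *Ddx58* at 0.24, and its nearest IRG member was *Ifi47* at 0.28. *Irgm2* was nearest to *Parp12*, *Rnf213* and *Ifi202b* at 0.28 to 0.35. Among the nearest to *Igtp* were *Ifi204* at 0.28 and *Ifi202b* at 0.38. Among those nearest to *Tgtp1* were *Tnfsf10* at 0.54 and *Ifi203* at 0.59, and for *Iigp1* they were *Cmpk2*, *Mx1* and *Ifit3b* at 0.81 to 0.90. The overlapping genes *Irgm2* and *Igtp* were 0.54 apart.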

How the data were processed

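Gene expression was measured by BRB-seq in 24 libraries of AML-12 cells. The authors used STAR and mm10 for alignment. The submitters' processing notes name HTSeq and featureCounts for counting. The deposited values were raw counts per Ensembl gene. Tool versions, the annotation release, strand use and the handling of molecular identifiers were not given in the sources used here. The table held 55487 genes and 5 summary lines, which were left out of library sizes and tests. Reads not aligned were 24.9% to 28.0% of a library and reads with no feature 5.11% to 6.47%. Groups came from the sample labels. The 7 IRG members and the gene lists were chosen with earlier results of these data known, so their directions are not independent evidence.

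DESeq2 1.42.0 (R 4.3.3), which the study also used, tested the counts. A gene needed 25 counts in sum. CON against PAL and PAL against BSA had a fit of 8 libraries each, and a joint fit of 16 libraries served all esiRNA comparisons. A gene was called when its *Padj*, the Benjamini-Hochberg adjusted p over all tested genes, was under 0.1. Shares of all genes were taken for calls and for non-overlap in the main fits. None was taken for unadjusted p-values or for the fits that left out a library. edgeR 4.0.16 (quasi-likelihood, TMM) was the alternative test. Levels are counts divided by size factors of all 24 libraries. The interval of a read ratio and the floors (3 counts) cover counting error only, and intervals of log2 fold changes come from DESeq2 standard errors. Nothing in the labels says that libraries of a group came from separate cultures on separate days, so p-values measure the spread between these libraries, which may be technical. Each of the 36 replicate pairs within groups differed by more than sampling noise (chi-square per degree of freedom 2.69 to 23.1). The pairs with BOTH replicate 4 were at 12.4 to 23.1.

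Named genes were the members, the targeted genes, the 3 genes most like each member above a mean normalized count of 20, and, from each list, up to 3 called genes of largest fold in CHREBP against CON with a mean of at least 50, or all called genes where 3 or fewer were called. 1 gene chosen by this rule is not reported here. Other list genes in the text were picked after their values were seen. Promoter windows came from RefSeq (GRCm38.p6), gene coordinates from GENCODE M21. Windows were aligned with Biopython 1.88 and figures drawn with matplotlib 3.10.9. The promoter of *Iigp1* and protein sequences are not reported here. Scripts were tested on simulated counts.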

Additional observations from a re-analysis of the deposited data

Results flagged for a closer look

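In 40 sets of 4 libraries, 1 for each member and group with any spread, the gap between the most extreme library and its neighbour was divided by the range of the set on the log2(normalized count + 1) scale. Dixon's 95% critical value for 4 samples was passed in 6 sets, and chance alone passes it in about 1 of 20. CHREBP replicate 1 was high for *Irgm1* (6308 normalized counts, ratio 0.862) and *Tgtp1* (303, ratio 0.860). CON replicate 1 was low for *Irgm2* (56.6, ratio 0.881) and *Iigp1* (0, ratio 0.838). The other sets were *Igtp* in BSA, with replicate 2 high (45.5, ratio 0.850), and *Tgtp2* in CON, where the reads were all in replicate 3 (1.65, ratio 1). The ratio is 1 whenever a single library of a set holds reads. The 2 reads of *Tgtp2* were also under the floor of 3 counts, so this set shows no outlier. BOTH against CHREBP and BMAL1 against CON differed, by the interaction term of DESeq2, for 5 members, and total esiRNA dose rose in the first and fell in the second, so *Bmal1* esiRNA and dose cannot be told apart. The differences on the log2 scale were 1.04 for *Irgm1*, 2.10 for *Irgm2*, 2.21 for *Igtp*, 1.34 for *Ifi47* and 2.55 for *Tgtp1*.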

How the results depend on the processing

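The alternatives were edgeR with TMM, TMM size factors in DESeq2, no filter on low counts, a threshold of 0.05, all 24 libraries in the fit, the 2 groups alone, the replicate number as a block, summed neighbours (*Tgtp1* with *Tgtp2*, *Irgm2* with *Igtp*), and each library left out. The 6 calls in BOTH against CON, BOTH against BMAL1 and CHREBP against BMAL1 were 6 throughout. In BMAL1 against CON the 2 calls became 4 with all 24 libraries and 1 with edgeR, with the replicate block and with the 2 groups alone, and 1 to 5 when a library was left out (*Tgtp1* had no adjusted p with the 2 groups alone). In BOTH against CHREBP the 1 call became 2 with all 24 libraries, 0 with the replicate block and 3 with the 2 groups alone, and 0 to 2 when a library was left out. The 3 calls with the 2 groups alone were *Irgm1*, *Irgm2* and *Tgtp1*, without *Ifi47*. In PAL against BSA the 1 call became 2 with edgeR, by the addition of *Irgm1*, and 1 to 2 when a library was left out. The count of calls was 5 to 6 in CHREBP against CON and in CON against PAL, and 4 to 6 for the interaction, when a library was left out. *Igtp* in PAL against BSA, which was not called, changed sign in 3 such fits and lay between -0.10 and 0.30. The cause of these moves was not tested. In no comparison did all 4 same-numbered pairs correlate above 0.1 in their deviations (-0.22 to 0.27). In BOTH against CHREBP 2 of the 4 pairs did, with a mean of 0.11, and 1 did in CON against PAL and in BOTH against CON. These values cannot settle whether the replicate numbers pair the libraries. With the replicate block 5 members were called in CHREBP against CON and 4 in the interaction. Where *Iigp1* has few reads (2 in PAL, 13 in BMAL1), depth limits the size of its change.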

Other observations

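*Usp18*, a regulator of interferon signalling, fell in BMAL1 against CON, where *Irgm2* and *Tgtp1* were the 2 IRG members called lower. It was at 366 ± 258 normalized counts in CON and 52.9 ± 7.51 in BMAL1 (SD, n = 4 each), a log2 fold change of -2.79 (DESeq2 *Padj* = 0.00132). Of the 14 receptor and signalling genes, 2 were called lower there by DESeq2 and 1 by edgeR, against 0.324% and 0.072% of all genes. The interaction term of *Usp18* was called, at 3.77 (DESeq2 *Padj* = 0.00186). The interaction was called higher for 4 and lower for 1 of 14 receptor and signalling genes, and higher for 4 of 9 guanylate-binding proteins, where 1.2% of all genes were called higher and 0.267% lower. By edgeR 3 of the 14 were called, all higher, and 2 of the 9. *Trim21*, at 21.5 ± 4.01 normalized counts in CON and 11.01 ± 3.13 in BMAL1, was at 74.9 ± 31.3 in CHREBP and 139 ± 40.4 in BOTH (SD, n = 4 each), with an interaction of 1.90 (DESeq2 *Padj* = 0.00727).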
